A study of Mus musculus with 24 samples.

Results

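The step from day 5 to day 6 (D5 to D6) of cardiac differentiation was described from the accessible regions listed for each day. Regions were chosen by position: the peaks of the D5 list and of the D6 list were joined where they overlapped by at least 1 bp. This gave 43387 regions, of 128693 regions made in the same way from all 12 lists of the series. A region with peaks of both lists is called shared, and a region with peaks of 1 list is called D5-only or D6-only. Chromatin accessibility was measured by ATAC-seq in A2lox.cre, an established mouse embryonic stem cell line, in 24 samples at 12 time points from the 2i stage, a culture of naive stem cells, to day 15. D5 and D6 had 2 biological replicates each, came from this 1 line with no treatment named beside the differentiation, and differed by label only in the day of collection (cell type given as an intermediate of the cardiac course). The labels name 1 peak list per time point for both replicates, so no value below has a replicate spread, and no difference between D5 and D6 was tested. The replicate signal tracks named in the labels were not used here.

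ATAC-seq inserts sequencing adapters into DNA that is not shielded by nucleosomes, and a peak is a place with more insertions than its surroundings. In mouse embryos and in such cultures, mesoderm cells that leave the primitive streak take on a cardiac fate under the control of Mesp1, and cardiac progenitors then switch on Nkx2-5, GATA, T-box, HAND and MEF2 factors. These factors bind gene starts and distant enhancers of the genes for the contractile apparatus and for calcium handling. A region missing from a list was not called there, which does not show that it was closed.

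Some gene starts had a peak within 1 kb in only 1 of the 2 lists, and such a start is called D5-only or D6-only. The sequence window at a start need not overlap that peak. Such windows of 6 genes are printed, chosen because their genes serve the heart muscle or, for Aldh1a1, had the strongest peak of this kind in the gene groups. They come from the RefSeq promoter table (GRCm38.p6, the assembly that mm10 names), run from 250 bases before to 50 bases after a start, and are written 5′ to 3′ on the strand of the gene. Capitals mark matches, on either strand, to GATAA (GATA factors), AAGTG (NKX2), AGGTGT (T-box), GGAATG (TEAD) and TGACAG (MEIS). Nppa, which encodes atrial natriuretic peptide, lies at chr4:148000472-148000771 on the plus strand, and its start was in the D5 list. Myl7, the atrial myosin light chain, lies at chr11:5898733-5899032 on the minus strand, again with a D5-only start. Myh7, the slow myosin heavy chain, lies at chr14:54994577-54994876 on the minus strand and was D5-only too. Aldh1a1, a retinaldehyde dehydrogenase that makes retinoic acid, is shown at its downstream annotated start, chr19:20601718-20602017 on the plus strand, also D5-only. Smyd1, a muscle histone methyltransferase, lies at chr6:71262232-71262531 on the minus strand, with a D6-only start. Csrp3, the muscle LIM protein of the Z-disc, lies at chr7:48848002-48848301 on the minus strand, and its D6-only peak lay just upstream of the printed window.
Nppa: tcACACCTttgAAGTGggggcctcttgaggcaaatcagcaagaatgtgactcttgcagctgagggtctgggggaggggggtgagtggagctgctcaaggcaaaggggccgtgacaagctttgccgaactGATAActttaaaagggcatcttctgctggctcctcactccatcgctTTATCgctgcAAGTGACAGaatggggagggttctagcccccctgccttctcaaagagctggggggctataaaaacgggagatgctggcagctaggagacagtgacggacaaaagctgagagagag
Myl7: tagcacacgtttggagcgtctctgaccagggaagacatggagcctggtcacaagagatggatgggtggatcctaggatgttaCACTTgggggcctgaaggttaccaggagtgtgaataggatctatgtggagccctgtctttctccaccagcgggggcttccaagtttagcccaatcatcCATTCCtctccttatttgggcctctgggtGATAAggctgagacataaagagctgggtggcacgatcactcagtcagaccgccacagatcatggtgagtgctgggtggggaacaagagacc
Myh7: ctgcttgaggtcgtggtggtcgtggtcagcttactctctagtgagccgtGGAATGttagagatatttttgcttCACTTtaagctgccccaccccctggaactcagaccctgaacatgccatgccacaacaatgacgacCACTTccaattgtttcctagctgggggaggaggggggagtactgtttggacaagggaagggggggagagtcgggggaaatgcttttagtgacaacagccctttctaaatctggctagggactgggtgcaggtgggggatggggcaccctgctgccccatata
Aldh1a1: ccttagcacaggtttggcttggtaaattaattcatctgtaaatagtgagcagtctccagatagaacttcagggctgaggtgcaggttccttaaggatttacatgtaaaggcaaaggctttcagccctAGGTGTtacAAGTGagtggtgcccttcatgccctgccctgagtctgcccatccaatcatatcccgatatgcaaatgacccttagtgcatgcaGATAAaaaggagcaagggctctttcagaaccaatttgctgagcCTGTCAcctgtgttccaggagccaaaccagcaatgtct
Smyd1: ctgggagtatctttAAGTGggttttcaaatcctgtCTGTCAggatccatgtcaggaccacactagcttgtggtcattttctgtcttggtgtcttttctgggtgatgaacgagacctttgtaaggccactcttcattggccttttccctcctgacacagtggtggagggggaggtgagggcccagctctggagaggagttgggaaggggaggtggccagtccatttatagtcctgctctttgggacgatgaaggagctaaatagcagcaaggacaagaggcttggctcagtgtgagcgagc
Csrp3: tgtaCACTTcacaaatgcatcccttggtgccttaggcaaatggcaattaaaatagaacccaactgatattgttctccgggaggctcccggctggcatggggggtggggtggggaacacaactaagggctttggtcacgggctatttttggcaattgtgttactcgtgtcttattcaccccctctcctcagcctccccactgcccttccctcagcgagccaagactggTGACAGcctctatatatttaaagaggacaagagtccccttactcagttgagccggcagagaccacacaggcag

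These windows held few matches to the 5 motifs. Nppa had 2 GATAA, 2 AAGTG, 1 AGGTGT and 1 TGACAG, with the last overlapping an AAGTG. Smyd1 and Csrp3 each had 1 AAGTG and 1 TGACAG, and neither had a GATAA. Over all 21045 windows of the table, GATAA occurred in 22.5%, and it occurred in 23.0% of 634 D5-only windows, 22.2% of 261 D6-only windows and 13.8% of 12530 shared windows. AAGTG occurred in 45.2% of all windows, in 47.9% of D5-only and in 49.4% of D6-only windows. For both motifs the shares in D5-only and D6-only windows lay within each other's Wilson 95% intervals, which cover counting error only. The median number of CG dinucleotides was 22.0 in shared windows, 7.00 in D5-only and 8.00 in D6-only windows. It was 3.00 in windows with a peak of neither list within 1 kb of the start. CCGGAAGT, an ETS motif of housekeeping promoters, went the same way, with 8.08% of shared, 1.26% of D5-only and 2.68% of D6-only windows. A match is a run of letters and not a measured binding site. Windows were classed by peaks within 1 kb of the start, so these shares do not describe the sequence of the peaks.

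The D5 list held 43341 peaks in 37849 intervals, which covered 24.3 Mb, and the D6 list held 32791 peaks in 28278 intervals, which covered 17.8 Mb. Among the 43387 regions, 22467 were shared (51.8%), 15323 were D5-only (35.3%) and 5597 were D6-only (12.9%). With the D5 list reduced to the 32791 peaks of highest −log10 q, so that both lists had equal numbers, 20390 of 36453 regions were shared (55.9%), 8385 were D5-only (23.0%) and 7678 were D6-only (21.1%). The excess of D5-only over D6-only regions thus shrank from 2.74 to 1.09 times when the lists had the same length. The D6-only class at equal numbers includes regions with a weaker D5 peak that was left out. Shared regions as a fraction of all regions of the pair came to 0.518 with all peaks. The neighbouring steps, which use the D5 or the D6 list again, had 0.405 (D4 with D5) and 0.401 (D6 with D7). At equal numbers the values were 0.559 for D5 with D6, 0.439 for D4 with D5 and 0.566 for D6 with D7. Equal numbers follow the shorter list of each pair, which had 43341 peaks for D4 with D5 and 32791 for the others, so the D4 with D5 value includes weaker peaks.

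**Figure D1:**
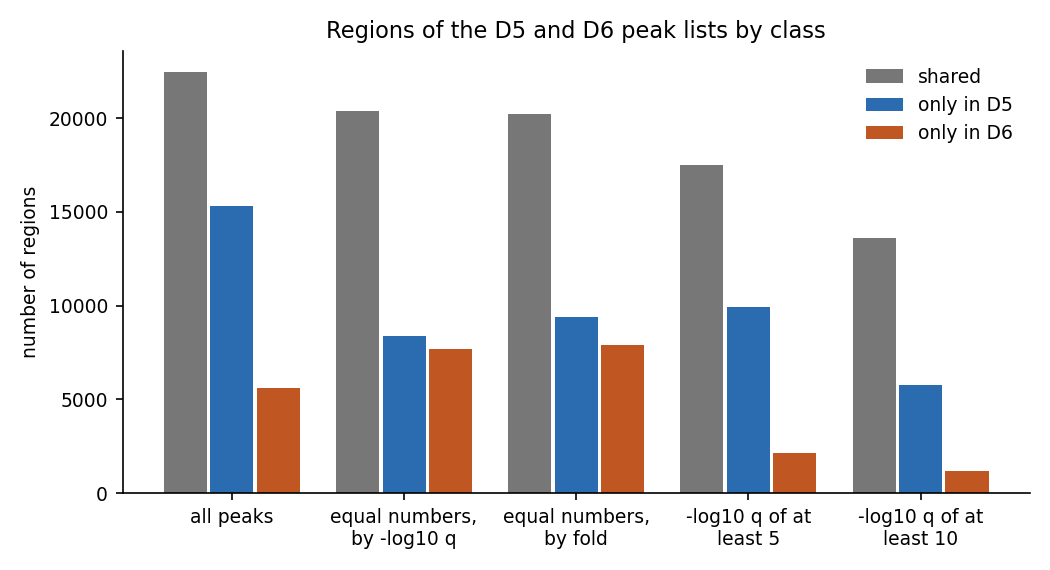
Bars give the number of regions (vertical axis) that were shared, only in D5 or only in D6, for all peaks, for equal numbers of top peaks ranked by −log10 q or by fold enrichment, and for peaks whose −log10 q reached 5 or 10. D5-only and D6-only bars are close at equal numbers (8385 and 7678) and far apart with all peaks (15323 and 5597).

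Strong peaks were nearly all common to both days. The −log10 q is the significance the authors' peak caller gave to each peak, and its smallest value was 1.30 in both lists. In the weakest decile of D5 intervals 19.6% overlapped a D6 peak, in the fifth decile 51.6%, and in the strongest decile 3784 of 3785. In the D6 list the weakest decile overlapped D5 in 34.6%, the fifth in 87.5% and the strongest in 2827 of 2828. Over whole lists, 59.5% of D5 intervals were found in D6 and 80.2% of D6 intervals in D5. Above the weakest range, regions without a counterpart were mostly from D5: 7380 D5-only regions but 1154 D6-only regions had a −log10 q of at least 5 and no listed peak at all on the other day. The highest −log10 q of a single-day region was nevertheless at D6 (348, against 94.8 for D5-only), in a narrow region inside Chl1 described below. At a fold enrichment of 4.9 to 5.1, the ratio of signal to background as the authors' caller gave it, the median −log10 p was 8.62 at D5 and 10.6 at D6. The part of this gap in statistical weight in the counts was not tested.

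**Figure D2:**
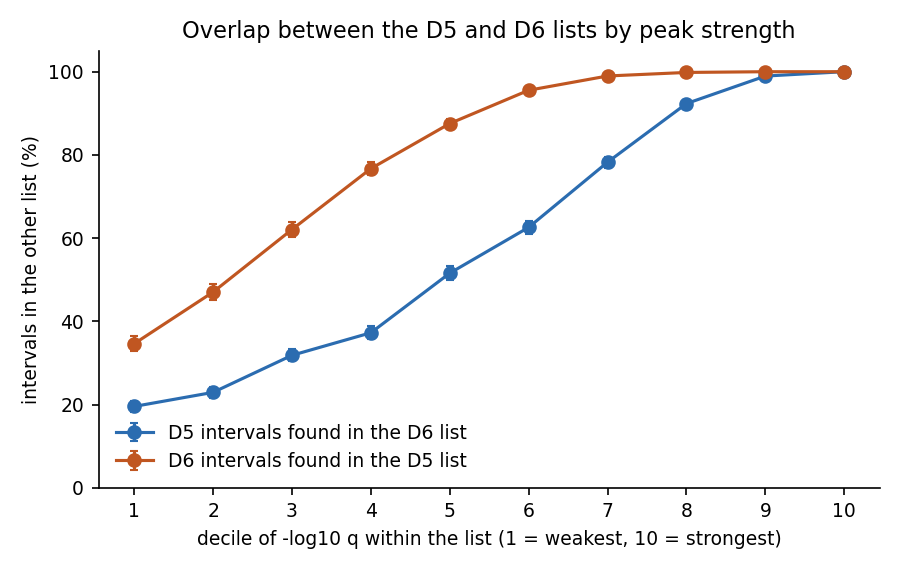
Points give the share of intervals of each list that overlap the other list (vertical axis, percent, with Wilson 95% intervals that cover counting error only) by decile of −log10 q within the list (horizontal axis). Both lines rise to nearly all intervals, and the D6 line lies above the D5 line until the strongest deciles.

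D5-only and D6-only regions were narrower than shared ones and lay in different places. The median width was 805 bp for shared, 364 bp for D5-only and 291 bp for D6-only regions. A shared region spans the joined peaks of both lists, which can widen it. Single intervals found in both lists had a median width of 761 bp at D5 and 660 bp at D6. The median fold enrichment of single-day regions in their own list was 4.32 (D5-only) and 3.37 (D6-only). Within 1 kb of either annotated end of a coding gene lay 49.6% of shared regions (95% Wilson interval 48.9 to 50.2), 5.95% of D5-only (5.59 to 6.34) and 8.02% of D6-only regions (7.34 to 8.76). Over 50 kb from any coding gene lay 8.29% of shared, 30.5% of D5-only (29.8 to 31.3) and 12.8% of D6-only regions (11.9 to 13.7). The intervals of the D5-only and D6-only shares did not overlap, and the shares were 33.3% and 12.3% at equal numbers. The D5-only share was the higher one in each band of peak strength: 26.0% against 12% for a −log10 q below 3, 31.1% against 12.8% from 5 to 10, and 36.1% against 17.3% from 10 to 20. The nearest shared region was also farther away, at a median of 46.9 kb for D5-only and 17.8 kb for D6-only regions, and 30.8% against 7.24% farther than 100 kb.

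**Figure D3:**
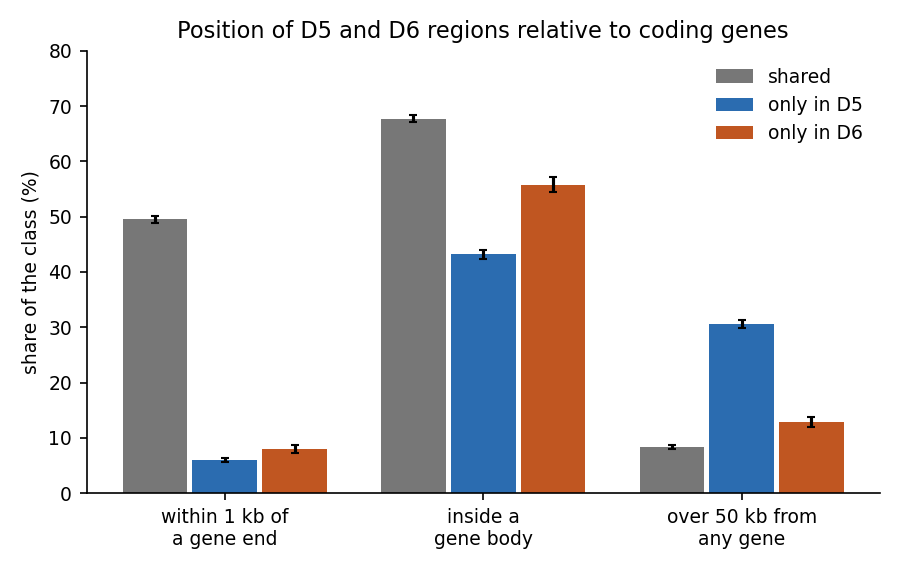
Bars give the share of each class (vertical axis, percent, with Wilson 95% intervals for counting error) within 1 kb of a coding gene's end, inside a gene body, or over 50 kb from any gene. D5-only regions have the highest bar over 50 kb from genes (30.5%), and shared regions the highest within 1 kb of a gene end (49.6%).

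Long genes held many of the D5-only regions. Among regions assigned to a coding gene, which means inside its body or within 50 kb of it, the median gene length was 82.3 kb for D5-only, 51.2 kb for D6-only and 33.7 kb for shared regions, and genes over 500 kb took 11.8%, 3.58% and 3.25%. Macrod2, an ADP-ribose hydrolase gene of 1998 kb, had 26 D5-only regions against 3 D6-only and 6 shared. Csmd1, a complement-regulating membrane protein, had 21 D5-only regions and no D6-only one. Nrxn3, a presynaptic adhesion protein, had 18, and Cdh13, Dlg2, Nrg1 and Ptprn2 had 17 each. Nrg1 encodes neuregulin, a signal from endocardium to heart muscle. The genes with most D6-only regions were Gse1 with 11, Btbd9 with 9, Casz1 with 8, Sdk1 with 8 and Zfhx3 with 7. Casz1, a zinc finger factor needed in heart development, had 2 D5-only and 7 shared regions beside its 8.

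The shares differed between chromosomes. The D5-only share of regions ran from 22.6% on chromosome 19 and 23.9% on chromosome 11 to 43.7% on chromosome 3, and the D6-only share from 3.83% on X (2.81 to 5.19) to 18.6% on chromosome 11. Chromosome 11 carried 1609 coding genes for 3007 regions and chromosome 3 carried 983 for 2244. The shares did not follow gene number throughout. Chromosome 7, with 2030 genes for 2834 regions, had 33.3% D5-only and 10.7% D6-only regions. X, with 966 genes for 1019 regions, had 37.0% D5-only regions. X stood apart from the autosomes, where the lowest D6-only share was 8.42%. At equal numbers the D6-only share was 9.23% on X and 29.4% on chromosome 11.

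The other 10 lists, which had no part in choosing the classes, mostly held different shares of the classes. Shared regions were called widely, in 81.8% at D4 and 95.4% at D7. Of the D5-only regions 44.1% (43.3 to 44.9) were called at D4, 57.4% on D7, 35.8% on D8, 13.5% on D10 and 9.37% on D15. D6-only regions were called in 14.1% (13.2 to 15.0) at D4, in 25.1% at D3, 59.2% on D7, 53.4% on D8, 20.9% on D10 and 18.9% on D15. D5-only regions thus went with D4 and D6-only regions with D8 and later, whereas both had about the same share at D7, the longest list with 66993 peaks, when peaks of every strength were taken. By strength, the D7 shares of D5-only and D6-only regions were close only below a −log10 q of 3 (44.2% and 43.5%). They were 51.4% and 64.0% from 3 to 5, 62.5% and 84.0% from 5 to 10, and 71.4% and 94.4% from 10 to 20, and from 20 up, with 26 D6-only regions, 83.0% and 92.3%, where the Wilson intervals overlapped. At equal numbers the shares at D4 were 50.4% and 21.8%, and at D8 40.8% and 59.9%.

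**Figure D4:**
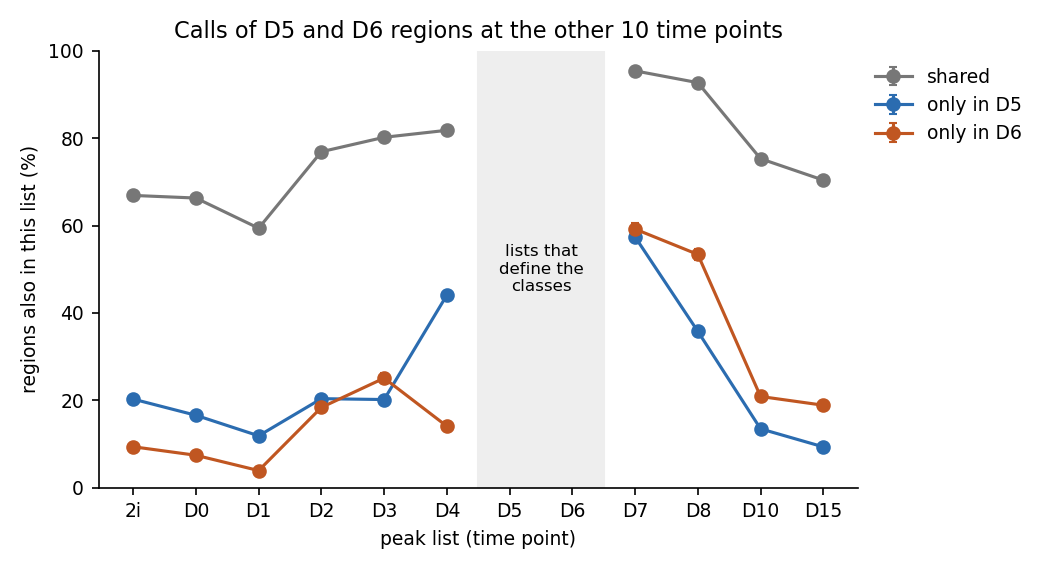
Points give the share of shared, D5-only and D6-only regions (vertical axis, percent, with Wilson 95% intervals, mostly smaller than the points) with a peak in each of the other 10 lists (horizontal axis, in order of time). The 2 classes of single-day regions part at D4 (44.1% and 14.1%) and at D8 (35.8% and 53.4%) and lie close at D7 (57.4% and 59.2%).

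Many D5-only regions were called again after D6. Of the D5-only regions 4187 (27.3%) were called at both D4 and D7, the days on either side of the step, and 6051 (39.5%) were in no later list. Those called at D4 and D5 and in no later list numbered 2369 (15.5%), and 3085 (20.1%) were in no list but D5. Of the D6-only regions 3490 (62.4%) were in no earlier list, and 1455 of these (26.0% of the class) were called at both D7 and D8. All 4 later lists held 298 of those without an earlier call (5.32%), and 1458 (26.0%) were in no list but D6. A further 1048 (18.7%) were called at D3 and not at D4. Among the 1154 stronger D6-only regions those first called at D6 and called again on D7 and D8 made up 44.4%, and only 4.59% were in no other list.

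D6-only regions without an earlier call that were called again at both D7 and D8 were ranked by −log10 q at D6. The first was a region of 530 bp (chr8:128156100-128156629) lying 202 kb left of Nrp1, a receptor for semaphorins and VEGF, by coordinate. Its fold enrichment was 12.6 on D6, then 18.9 on D7, 13.6 on D8 and 5.41 on D10, and it was not called at D15. Another (chr13:56601047-56601540), 8.29 kb left of Tgfbi, a TGF-beta-induced matrix protein, had 10.5 on D6 and 15.5 on D7, followed by 10.1 on D8, 7.85 on D10 and 3.74 on D15. Values of different days belong to different lists, and they are set side by side here without a comparison of level. A region 263 kb right of Slc30a10 (10.7 at D6) was likewise listed at D7 and D8. So were regions 19.5 kb left of Ypel2 (9.62), 36.2 kb left of Zmiz1 (8.50) and inside Stk25 (8.75). Rbpms2, an RNA-binding protein of heart and smooth muscle, had a region 16.1 kb to its left with 9.13 on D6, then 14.2 on D7 and 11 on D8.

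The 2 D6-only regions with the highest −log10 q were of another kind. A region of 233 bp inside the adhesion gene Chl1 (chr6:103649060-103649292) had a −log10 q of 348 and a fold enrichment of 35.7 at D6. Elsewhere its fold enrichment was 33.8 on D2 and 34.5 on D3, then 29.5 on D7, 31.7 on D8, 34.5 on D10 and 37.6 on D15, and it was not called at 2i, D0, D1, D4 or D5. A region of 209 bp lying 137 kb left of Rab10 (chr12:3109879-3110087) had 24.8 at D6 and 30.5 at D15 and was in no other list. Both are narrower than the class median of 291 bp and far above its median fold of 3.37. No list of known high-signal artefact regions was used here, and whether these 2 are of that kind was not tested.

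D5-only regions of highest −log10 q were mostly called at D4 and D7 as well. The leading one, 121 kb left of Pudp, had a fold enrichment of 6.48 at D4, 18.9 at D5 and 5.21 at D7. A region 26.3 kb right of Gm6712 (chr17:17345484-17346232) had 14.4 at D4, 17.4 at D5, 15.8 at D7, 11.9 at D8 and 6.84 at D10. One lying 639 kb left of Adgrl3, a neuronal adhesion receptor (chr5:80379695-80380052), had 11.7 at D4, 18.2 at D5 and 5.21 at D7. Of the 10 leading D5-only regions, 9 were called at both D4 and D7, and the exception, inside Pkhd1, was called at D7 with 10.2. Among those called at D4 and in no later list, a region 76.1 kb left of Egfr, the EGF receptor (chr11:16675791-16676338), had 13.1 at D4 and 14.8 at D5.

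The fixed marker genes differed in how many of their regions were shared. Nppa had 1 region, D5-only, and Myh6 had 1 region, D6-only. Ttn had 1 shared region of 4 and Kdr 2 of 10. Other markers had all their regions on both days. Mesp1 had 4 regions, all shared, and the one 3.89 kb to its right (chr7:79797119-79797848) had a fold enrichment of 5.45 at D4, 5.63 at D5, 5.31 at D6 and 3.52 at D7. Pdgfra, a receptor of cardiac mesoderm, had 4 regions, all shared. Tnnt2, cardiac troponin T, had a region at one of its ends (chr1:135835825-135836435) that was first called at D5, with 5.19, then 6.25 on D6, then 9.18 on D7 and 8.31 on D8. Actc1, cardiac actin, had a region of this kind at its own end, with 5.02 at D5, 4.99 at D6 and no earlier call. Acta2, smooth muscle actin, had 12.8 at D5 and 7.48 at D6. Pou5f1, the pluripotency factor, had no assigned region on either day.

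For 21 lists of genes, 9 to 29 genes each, regions were read against all 36133 regions assigned to a coding gene, of which 29.5% were D5-only and 13.5% D6-only. At equal numbers these backgrounds were 18% and 21.7% of 31081 regions. With all peaks 4 lists had more D6-only than D5-only regions (primitive streak, blood, skeletal muscle and housekeeping genes), and at equal numbers all 21 did. The direction of a list's difference thus depended on the length of the D5 list. Only that list was shortened, so a D6-only region at equal numbers can hold a weaker D5 peak that was left out. Cardiac mesoderm genes, for example, went from 45 to 37 shared and from 7 to 15 D6-only regions. The counts of each list described below are given both ways, while counts for single genes are with all peaks. No list was tested.

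Cardiac transcription factors had 26 D5-only and 26 D6-only regions of 121, which is 21.5% each, below the D5-only and above the D6-only background. At equal numbers they had 16 and 34 of 111. With all peaks, 12 D5-only and 6 D6-only regions had a −log10 q of at least 5. Of the 26 D6-only regions 19 were called at D7 and 3 at D4, and of the 26 D5-only regions 18 were called at D7 and 14 at D4. Gata5, an early cardiac and endocardial GATA factor, had 3 D6-only and no D5-only region. Its region 2.24 kb to the left (chr2:180322527-180323167) had a fold enrichment of 3.03 on D3 and 6.21 on D6, then 6.86 on D7, 7.05 on D8, 4.63 on D10 and 3.44 by D15. A second, 4.44 kb to the right (chr2:180339696-180340193), had 4.02 at D6, 5.11 at D7, 4.96 at D8 and no earlier call. Both were still listed at D10 and D15.

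Other factors of the heart field divided by gene. Tbx5, a T-box factor of the first heart field, had 3 D6-only regions and 1 D5-only region. The one 11.8 kb to its right (chr5:119896814-119897303) had 4.45 on D6, then 8.59 on D7 and 5.01 on D8, and was in no earlier list. Nkx2-5, the early cardiac homeobox factor, had 2 D6-only regions inside the gene. The one at its right end (chr17:26844550-26844869) had 3.68 at D6 and 3.93 at D7 and was called on no other day. Mef2d had 4 D6-only regions, with the strongest inside the gene (chr3:88157794-88158251): 12.7 at D3, 5.65 at D4, 6.00 at D6 and 7.53 at D7. Mef2c, its paralogue of the second heart field, had 3 D5-only and no D6-only region. Zfpm2, the GATA cofactor FOG2, had 6 D5-only regions, of which the one at chr15:40824412-40825404 had 9.26 at D4, 6.15 at D5 and 7.04 at D7. Isl1, the factor of second heart field progenitors, had 4 D5-only regions, 2 of them called at D4 and in no later list. The gap of these regions at D6 was followed by a call at D7 for Isl1 in the other 2 and for Zfpm2 in 5 of 6.

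Gata4, Hand1 and Hand2 had most of their regions in both lists. Gata4 had 4 shared regions of 6, and the strongest, 15.7 kb inside its right end (chr14:63255593-63256345), had 11 at D5 and 13.0 at D6. Hand2 had 7 shared regions of 8 and Hand1 4 of 5. Tbx20 had 3 shared regions of 4 and Myocd, the SRF cofactor, 2 of 3.

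Sarcomere genes had 16 D5-only and 9 D6-only regions of 53 (30.2% and 17.0%), and 9 and 14 of 46 at equal numbers. With all peaks, 8 of the 16 and 2 of the 9 had a −log10 q of at least 5. The 9 D6-only regions were spread over 8 genes. Myl3, the ventricular light chain, had one inside the gene (chr9:110765826-110766243) with 3.96 on D6, then 8.45 on D7, 6.85 on D8, 5.24 on D10 and 4.18 on D15, and none earlier. Csrp3 had 3.61 on D6, then 4.66 on D7 and 4.75 on D8 beside its start. Myh6, the fast cardiac myosin heavy chain, had 2.68 on D6, then 4.57 on D7 and 4.71 on D8 inside the gene (chr14:54946473-54946691). These 3 regions were in no list before D6. Of the 16 D5-only sarcomere regions 6 were called at D7. Ttn, the titin gene, had 3 such regions, none of them in a later list, and Nebl, nebulette of the Z-disc, had 3, the strongest with 8.95 at D5, 9.90 at D7 and 5.27 at D8 (chr2:17460393-17460924).

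Calcium handling and ion channel genes had 24 D5-only and 17 D6-only regions of 77, and 13 and 21 of 66 at equal numbers. The D6-only share of 22.1% stood beside the background of 13.5%. Cacna1c, the pore-forming subunit of the L-type channel, took 6 of the 17 and 7 of the 24. Its D6-only region near the right end (chr6:119193697-119194010) had 4.12 on D6, then 10.4 on D7, 9.68 on D8, 5.07 on D10 and 3.68 on D15. Kcnq1, a repolarising potassium channel, had 3 D6-only regions and no D5-only one, led by chr7:143371250-143371728 with 4.09 on D6, then 9.34 on D7 and 5.79 on D8. Ryr2, the calcium release channel, had 4 D5-only and 2 D6-only regions, and its strongest (chr13:12030324-12031156) had 6.39 at D4, 8.27 at D5 and 3.98 at D7. Slc8a1, the sodium-calcium exchanger, had 4 D5-only regions and no D6-only one, so genes of the same list had their single-day regions on different days.

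Markers of other cell types were read in the same way. Endothelial genes had the highest D5-only share of the 21 lists, 22 of 50 (44.0%), with 7 D6-only regions. At equal numbers they had 9 and 12 of 37. Tek, the angiopoietin receptor, had 4 D5-only regions, and the one 15.7 kb to its left (chr4:94723219-94723601) had 6.73 at D5, 10.2 at D7 and 3.89 at D8. Kdr, a VEGF receptor found in endothelium and its precursors, listed among cardiac mesoderm genes, had 6 D5-only and 2 D6-only regions, and 4 of the 6 were in no other list. Blood genes had 2 D5-only and 7 D6-only regions of 28, and 2 and 11 of 28 at equal numbers. The 7 came from 2 genes, 5 from Runx1, the factor of blood emergence, and 2 from Gfi1b. The Runx1 region with the highest later values (chr16:92698425-92698867) had 3.02 on D6, then 7.90 on D7 and 8.26 on D8, and was also called at D2, D3 and D4. Endoderm genes had 13 D5-only and 4 D6-only regions of 30 (43.3% and 13.3%), with Foxa2 at 3 and 0. The Foxa2 region 1.90 kb to the right (chr2:148048562-148049173) had 3.94 at D4, 6.93 at D5 and 4.81 at D7. At equal numbers endoderm genes had 2 D5-only and 4 D6-only regions of 19. Smooth muscle genes had 5 D5-only and 5 D6-only regions of 22 with all peaks (22.7% each), and 1 and 7 of 18 at equal numbers. Lmod1, a leiomodin of smooth muscle, had 3 of the 5 D6-only regions with all peaks, all called again at D7. Whether these lists reflect other cells in the cultures was not tested.

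Genes of the primitive streak had 6 D5-only and 8 D6-only regions of 37 (16.2% and 21.6%), and 4 and 11 of 35 at equal numbers. With all peaks, 3 D5-only and 1 D6-only of these regions had a −log10 q of at least 5. Nodal, the streak ligand, had both kinds. Its region 11.9 kb to the left (chr10:61405761-61406412) had 11.6 at D3, 4.35 at D4 and 6.80 at D5 and was in no later list. In contrast, one 4.60 kb to the left (chr10:61413161-61413580) was first called at D6, with 4.21, and had 9.01 at D7, 8.58 at D8 and 5.05 at D10. Eomes, a T-box factor of the streak, had 2 D5-only regions and 1 D6-only region.

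Signalling genes had single-day regions of both kinds. Wnt genes had 33 D5-only and 13 D6-only regions of 103 (32.0% and 12.6%), and BMP and TGF-beta genes 25 and 15 of 104 (24.0% and 14.4%). Notch genes had 14 and 7 of 58 (24.1% and 12.1%) and FGF genes 23 and 9 of 79 (29.1% and 11.4%). Retinoic acid genes had 20 and 13 of 68 (29.4% and 19.1%). Over all assigned regions the shares were 29.5% and 13.5%. At equal numbers each of these 5 lists had more D6-only regions: Wnt genes had 10 D5-only and 21 D6-only regions of 80, BMP and TGF-beta genes 14 and 26 of 93, Notch genes 6 and 11 of 50, FGF genes 16 and 18 of 72, and retinoic acid genes 11 and 18 of 59. Axin2, a feedback inhibitor of Wnt signalling, had 5 D5-only and no D6-only region. Fgf10, a ligand of the second heart field, had 6 and 0, and Spry2, an FGF inhibitor, 5 and 0. Smad7, an inhibitor of TGF-beta signalling, had 3 D6-only and no D5-only region, and Id3, a BMP target, had 3 and none. Rxra and Rarb, which encode partner receptors for retinoic acid, had single-day regions on opposite days: Rxra had 6 D6-only and no D5-only region, and Rarb had 8 D5-only and no D6-only region. Rarb is 651 kb long and Rxra 86.9 kb, and genes over 500 kb took a larger share of D5-only than of D6-only regions. All 6 D6-only regions of Rxra were without an earlier call, and 5 were called at both D7 and D8, the most of any gene together with Gse1. The region 39.4 kb to its left (chr2:27636855-27637226) had 4.74 on D6, then 9.46 on D7 and 3.86 on D8, and the one at chr2:27699571-27699881 had 3.23 on D6, then 6.81 on D7 and 7.78 on D8.

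**Figure D5:**
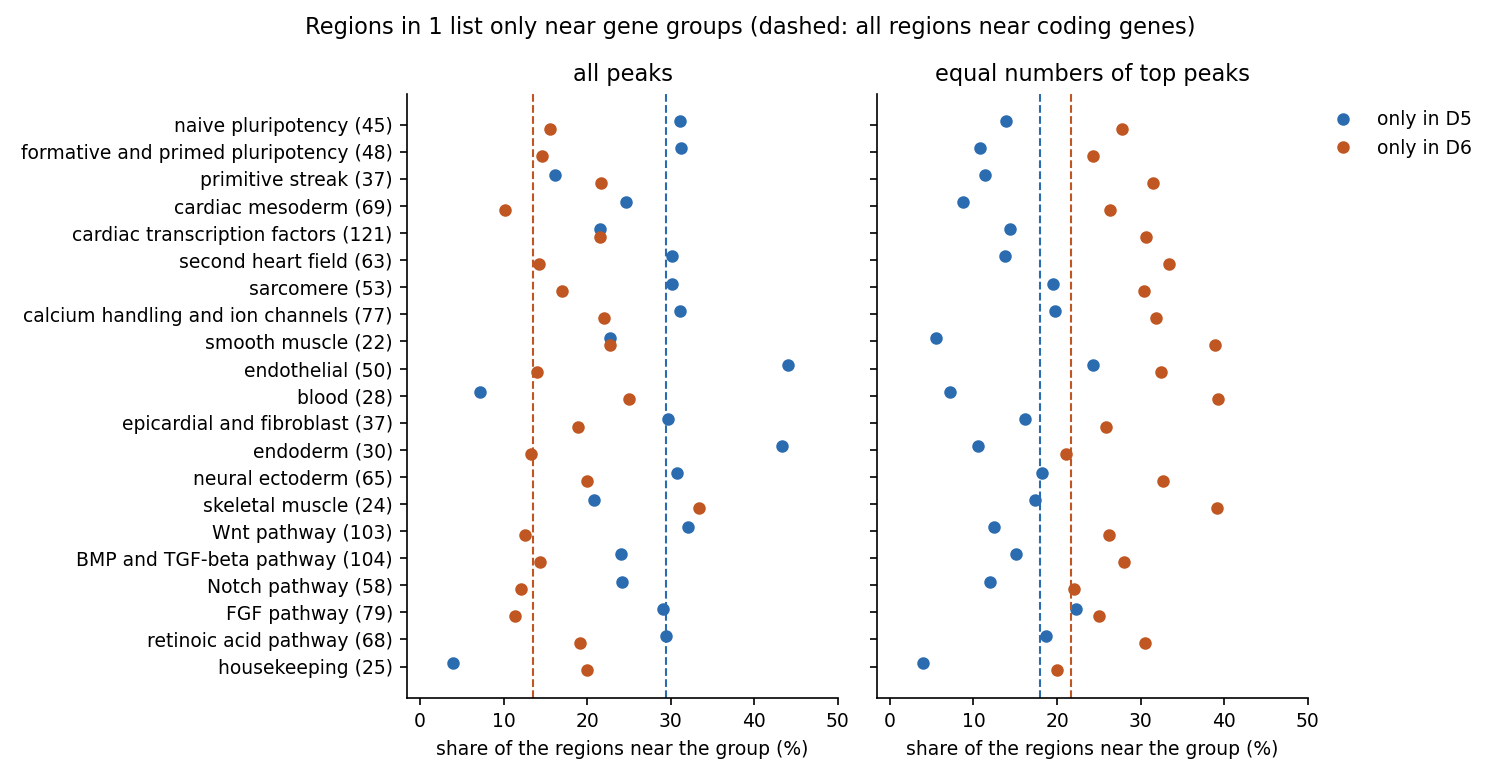
Points give, for each of 21 gene lists (total regions in brackets), the share of its regions that were D5-only or D6-only (horizontal axis, percent), with all peaks on the left and equal numbers of top peaks on the right. Dashed lines mark the shares over all assigned regions, 29.5% and 13.5% on the left and 18% and 21.7% on the right.

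Gene starts seldom differed in status. Of 17274 coding genes with a start in the RefSeq promoter table, 10578 (61.2%) had a peak of both days within 1 kb of a start, 488 (2.83%) a D5 peak only and 192 (1.11%) a D6 peak only. In 21 of the 488 and 4 of the 192 the window also touched a shared region, so these lie at the edge of a region called on both days. Of the 488, 68.9% were called at D4 and 81.4% at D7. Of the 192, 24.0% were called at D4, 57.3% at D3 and 75.5% at D7. Among the 227 list genes with a start entry, D5-only starts were those of Aldh1a1, Irx4, Otx2, Myh7, Myl7, Myf5 and Nppa, and D6-only starts those of Smyd1, Csrp3, Myom1, Hoxb1, Meis1 and Tbx6.

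Most of these starts rested on weak peaks. Aldh1a1 had a −log10 q of 16.9 and a fold enrichment of 8.29 at D5, with 4.19 at D4 and 5.21 at D7 in the same region (chr19:20601615-20602217). Nppa had a −log10 q of 1.87 at D5, with a fold enrichment of 2.99 there and 3.75 at D7. The peaks at the Myh7 start (4.35 at D5, −log10 q 5.00) and the Myl7 start (3.62, −log10 q 3.73) lay in regions called on no other day, although separate peaks of D4 and D8 lay within 1 kb of the Myl7 start. At Smyd1 the start region had 3.69 on D6, then 3.60 on D7 and 3.33 on D8, and no earlier call, as at Csrp3. The Smyd1 and Csrp3 windows printed above are therefore the 2 heart muscle starts first called at D6 and called again on both following days.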

How the data were processed

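ATAC-seq reads from 2 replicates at each time point were turned by the submitters into 1 peak list per time point. The submitters' processing notes name cutadapt 2.10, Bowtie2 2.3.2, SAMtools 1.5, Picard, MACS2 2.1.1 and the mm10 build, without order or settings. The way replicates were combined, any Tn5 shift and the number of reads behind each list were not given in the sources used here. Per the file's standard columns, the deposited lists hold a peak score, a fold enrichment (a linear ratio of signal to background), the peak's p-value and its q-value as −log10, and a summit offset. They are the authors' values for single peaks.

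Intervals of D5 and D6 were joined and classed with Python 3.11.15, pandas 2.3.3 and SciPy 1.17.1, after tests on simulated intervals. Region centres were assigned to the gene body that holds them or to the nearest within 50 kb, among 21631 coding genes of GRCm38.p6. Where a region overlapped several peaks of a list, the highest value was used. Starts came from the RefSeq promoter table, which matched 17274 genes and 227 of 320 list genes. Left and right are by coordinate. Exon and intron, and motif counts at summits, need a genome that was not used here, and motifs of MEF2 and CTCF were not counted. Equal numbers of peaks, stricter q thresholds, other overlap rules and other gene distances were the alternatives.

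Named genes were the up to 3 with most D5-only and with most D6-only regions in each list, the leading genes and regions genome-wide, list genes with a single-day start, and fixed markers. The members and lists were chosen with earlier results of these data known. Leading regions of single courses over time (Rbpms2 and Egfr among them) were picked after their values were seen, as were Smad7, Tbx20 and the pairing of Rxra with Rarb.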

Additional observations from a re-analysis of the deposited data

How the results depend on the processing

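No paired analysis was possible because each time point has 1 peak list for both replicates, and leaving out a replicate could not be done for the same reason. In what follows, each pair of values gives D5-only regions first and D6-only regions second. Reported values were 15323 and 5597 regions, 5.95% and 8.02% at gene ends, 30.5% and 12.8% over 50 kb from a gene, 44.1% and 14.1% called at D4, and 57.4% and 59.2% called at D7. Moved values are those past 1.5 times for counts or outside the Wilson interval for shares. An overlap of 50% of the shorter peak moved 1 of them, the D6-only share called at D4, to 15.4%. With summits within 150 bp the shares became 8.11% and 12.8% at gene ends, 28.6% over 50 kb (D5-only), 45.9% and 25.5% at D4, and 60.6% and 66.5% at D7. A −log10 q of at least 5 in both lists left 9921 and 2135 regions, with 9.0% and 14.3% at gene ends, 29.5% over 50 kb (D5-only), 55.1% and 29.3% at D4, and 72.3% and 88.4% at D7. At 10 or more there were 13607 shared regions and 5777 and 1202 single-day regions, with 16.6% and 26.4% at gene ends, 27.4% and 10.6% over 50 kb, 67.4% and 50.4% at D4, and 84.2% and 96.9% at D7. Equal numbers by −log10 q gave 8385 D5-only regions, 10.6% of D6-only regions at gene ends, 33.3% of D5-only regions over 50 kb, 50.4% and 21.8% at D4, and 65.3% and 66.2% at D7. Ranking by fold enrichment gave 9399 D5-only regions, 12% of D6-only regions at gene ends, 33.8% and 11.6% over 50 kb, 49.3% and 24.0% at D4, and 63.0% and 67.1% at D7. Requiring a −log10 q of 5 where a region is listed and no listed peak on the other day gave 7380 and 1154 regions, 6.37% of D5-only regions at gene ends, 33.5% and 13.8% over 50 kb, 51.3% and 17.8% at D4, and 66.9% and 86.0% at D7. Gene ends taken within 500 bp held 4.03% and 4.93%, and within 2.5 kb 10.4% and 15.0%. In every setting run, D5-only regions outnumbered D6-only ones, lay over 50 kb from genes more often, lay at gene ends less often and were called at D4 more often. By band of peak strength the gene-end shares did not stay apart. They were 7.02% and 7.65% for a −log10 q from 10 to 20, and 8.73% and 0% (of 26 D6-only regions) from 20 up. In both bands the Wilson intervals overlapped. Stricter thresholds and equal numbers also remove weaker peaks of the other list, so that single-day classes then hold regions with a weaker peak on the other day. Of the 42 D5-only and D6-only counts of the gene lists, 0 moved with the 50% overlap, 10 with summits, 28 at a −log10 q of 5, 39 at 10, 25 and 32 at equal numbers by −log10 q and by fold enrichment, 39 under the rule with no listed peak, 7 with genes within 20 kb and 2 within 100 kb. Lists with more D6-only than D5-only regions numbered 4 as reported, with the 50% overlap and with summits, and 21 at equal numbers. There was 1 (smooth muscle) at a −log10 q of at least 5 and under the rule with no listed peak. At 10 or more there were 2 (blood and skeletal muscle). Depth is unknown, so the number of regions missed in either list is not known.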
